A study of Mus musculus with 778 samples.

Results

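The last step of oocyte growth was taken here as the difference between late growing oocytes, named GO3, and fully-grown oocytes, named FGO, in single-cell RNA-seq of mouse oocytes. Every oocyte labelled GO3 or FGO in the count table was used, which gave 44 GO3 and 56 FGO cells, 100 of the 223 cells measured. The 223 cells covered 5 stages, of which NGO (non-growing), GO1 and GO2 precede GO3, and a second assay of the study, on chromatin accessibility and DNA methylation, was not used here. GO3 oocytes measured 60 to 65 μm across and FGO oocytes more than 70 μm. Both came from wild-type ICR females aged 3 to 4 weeks, whereas NGO were taken from pups aged 3 to 4 days. The oocytes were released from the ovary by enzymes and picked by hand, so a stage was a size class and not a timed sample. The labels listed 4 RNA libraries, and the name of a cell gave its stage and a number without its library or mouse. Each stage therefore counted as 1 pooled sample. No difference between the stages could be tested against replicates, and cells were used only to show how widely a value was spread.

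A growing oocyte stays arrested in the first meiotic prophase while it enlarges, builds its zona pellucida and fills its cytoplasm with messenger RNA, ribosomes and mitochondria for the embryo. Near full size its chromatin condenses around the nucleolus, transcription stops, and the stored transcripts are from then on kept, translated or degraded without replacement. An RNA level in a fully-grown oocyte is thus the outcome of earlier synthesis and of differing stability, and the share taken by 1 transcript depends on how much of the others is left.

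The values below are CPM, counts scaled to 1000000 per cell and thus the share of a cell's unique molecular identifiers (UMIs, tags that count original RNA molecules) taken by a gene, averaged over the cells of a stage with equal weight. CPM says nothing about how much RNA a cell held. GO3 cells had 232640 to 3549949 UMIs (median 972294, total 49822036) and FGO cells had 61555 to 3828823 (median 792312, total 64311908). Among FGO cells 10 were shallower than the shallowest GO3 cell, 3 of them under 100000 UMIs. A gene was called when its mean was at least 2-fold higher in one stage and at least 10 CPM there. Intervals in parentheses are exact 95% intervals of the ratio of summed UMIs, and they cover counting error only.

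Both stages carried the transcripts that define an oocyte. All 16 oocyte markers were at 10 CPM or more, with summed levels of 31923 CPM in GO3 and 35865 CPM in FGO, led by the linker histone H1foo. One of them, Figla, was called. Of the markers of other ovarian cells most were low, with exceptions among the granulosa genes and the endothelial gene Pecam1. The 8 cumulus genes summed to 0.0548 and 0.175 CPM, and no UMI was found for 6 of them in GO3 and for 3 in FGO. The 14 genes of theca and stroma summed to 8.53 and 9.12 CPM, with smooth muscle actin Acta2 the most abundant. Granulosa genes reached 591 CPM in GO3 and 493 CPM in FGO, almost wholly through Serpine2 (370 and 395 CPM) and the oestrogen receptor Esr2 (185 and 74.4 CPM). Esr2 was called higher in GO3, 1 of the 3 granulosa markers at 10 CPM or more, and the part of granulosa RNA in the results was not tested. Amh, which defines granulosa cells of growing follicles, stood at 0.0132 and 0.0160 CPM, and Krt18, Krt19 and Gatm had no UMI in GO3. In FGO all 18 granulosa genes had UMIs. Endothelial and blood genes summed to 43.6 and 17.95 CPM. Pecam1 made up most of it, at 41.5 and 15.9 CPM. It was the 1 marker of that list at 10 CPM or more and was called higher in GO3. The 5 haemoglobin genes had no UMI in either stage.

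The late step was small in extent. Of 7518 genes at 10 CPM or more in either stage, 272 were higher in FGO (3.62%) and 419 were higher in GO3 (5.57%), in all 691 genes or 9.19%. In the cells over 1500000 UMIs alone (11 GO3 and 15 FGO), 348 of the 691 were still at 2-fold in the same direction and 343 were not. Differences of at least 4-fold were found for 38 genes in FGO and 78 in GO3, and 8-fold differences for 10 in each direction. The median log2 ratio of FGO over GO3 over the tested genes was -0.02, with quartiles of -0.33 and 0.28. The called genes took a modest part of the transcriptome. In the median cell, the genes higher in FGO held 0.928% of UMIs in GO3 and 2.22% in FGO, and those higher in GO3 held 3.64% in GO3 and 1.35% in FGO. Between GO2 and GO3 the same rule called 6.35% of genes and between GO1 and GO2 16.5%. The root mean square difference of log2(CPM + 1) was 0.59 between GO3 and FGO and 0.49 between GO2 and GO3, and no test of those sizes was possible.

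**Figure D1:**
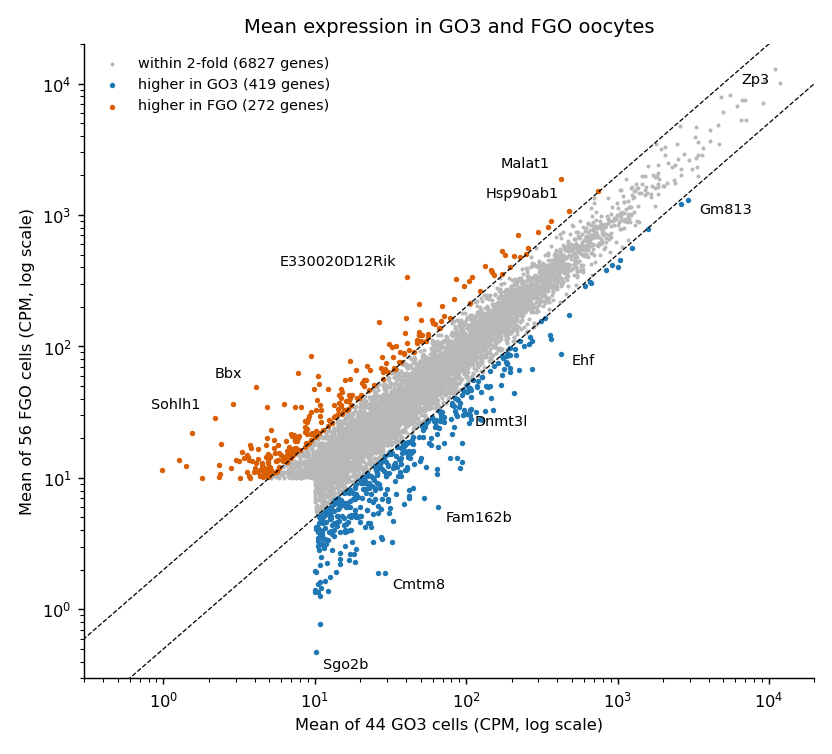
Mean CPM of 44 GO3 cells (x axis) and 56 FGO cells (y axis) for the 7518 genes at 10 CPM or more in either stage, both axes logarithmic, with dashed lines at 2-fold. Most points lie between the lines; 272 genes are above and 419 below them.

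Among the genes that were higher in fully-grown oocytes, the largest ratios belonged to transcripts of low level in late growing ones. Sohlh1, a basic helix-loop-helix transcription factor of early oocytes (chromosome 2, 25698515 to 25702768, mm9), had a mean of 2.20 CPM in GO3 and 28.7 CPM in FGO. Its GO3 cells ranged from 0 to 8.62 CPM with a median of 1.34, and its FGO cells from 0 to 243 CPM with a median of 12.5. Of 56 FGO cells 32 exceeded every GO3 cell, while the lowest FGO cells had no UMI, so the stages overlapped. The ratio was 13.04-fold by the mean over cells and 8.20-fold in summed UMIs (6.78 to 9.995).

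Bbx, which encodes an HMG-box protein (chromosome 16, 50191957 to 50432503, mm9), separated the stages more cleanly. It ran from 0 to 13.8 CPM (median 3.40) in GO3 and from 4.94 to 159.2 CPM (median 38.6) in FGO. In FGO 44 cells were above the highest GO3 cell, and the means of 4.10 and 49.5 CPM differed 12.05-fold, and 7.70-fold in summed UMIs (6.66 to 8.95). Myot, the gene of the muscle protein myotilin, went from 9.50 CPM (cells 0 to 38.6, median 8.71) to 84.9 CPM (cells 0 to 317, median 62.4), with 37 FGO cells above all GO3 cells. Maged1, of the MAGE family (chromosome X, 91780813 to 91787482, mm9), averaged 7.72 CPM in GO3, with cells from 0 to 33.5 and a median of 6.53. It averaged 62.8 CPM in FGO, with cells from 0 to 388 and a median of 33.6, and 28 FGO cells lay above the GO3 range. Mgl2, a C-type lectin gene, stood at 0.983 and 11.4 CPM, and 37 FGO cells exceeded the highest GO3 cell at 4.25 CPM.

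The same rule also named Ppp6r2 (a regulatory subunit of protein phosphatase 6, 2.90 and 36.3 CPM), Map7d2 (a microtubule-binding protein, 2.39 and 18.2 CPM), Tc2n (4.86 and 34.9 CPM), Phf21b (1.41 and 12.2 CPM), 4932438H23Rik (1.55 and 21.9 CPM), E330020D12Rik (40.8 and 340 CPM) and the non-coding A330032B11Rik (1.27 and 13.6 CPM). In summed UMIs the ratios were smaller by over 1.5 times for 6 of them. They went from 14.2-fold to 6.83-fold for 4932438H23Rik, from 12.5 to 7.94 for Ppp6r2, from 8.67 to 3.27 for Phf21b, from 8.33 to 5.12 for E330020D12Rik and from 7.62 to 4.91 for Map7d2. In the cells over 1500000 UMIs A330032B11Rik was 1.27-fold and Phf21b 1.45-fold, both under the limit, and 4932438H23Rik was 2.81-fold, Ppp6r2 3.23-fold and E330020D12Rik 3.11-fold. Some of these means rested on a minority of cells. A330032B11Rik had a median of 0.899 CPM in FGO against a highest cell of 569 CPM, and its ratio fell from 10.7-fold by means to 2.52-fold in summed UMIs (1.91 to 3.37). Ppp6r2 likewise had a median of 4.89 CPM in FGO, and 13 FGO cells exceeded the GO3 range. For Tc2n only 6 did.

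Among the genes that were lower in fully-grown oocytes, the largest ratios were shared by most cells. Cmtm8, which encodes a membrane protein of the MARVEL family (chromosome 9, 114698463 to 114753270, mm9), had 1.57 to 85.97 CPM in GO3 (median 27.8) and 0 to 9.36 CPM in FGO (median 0.989). In GO3 34 cells were above every FGO cell, and 34 FGO cells were below every GO3 cell. Its mean was 28.9 CPM in GO3 and 1.90 CPM in FGO, 15.2-fold apart, and 13.2-fold in summed UMIs (11.2 to 15.6). Trps1, a GATA-type zinc finger repressor (chromosome 15, 50486307 to 50721587, mm9), ran from 5.53 to 82.5 CPM in GO3 (median 28.3) and from 0 to 37.7 CPM in FGO (median 1.58). Of the 56 FGO cells 47 lay under the lowest GO3 cell. Fam162b averaged 65.3 CPM in GO3, with cells from 5.02 to 181 and a median of 61.5. In FGO it averaged 5.999 CPM, with cells from 0 to 25.6 and a median of 3.50, and 33 FGO cells lay below the GO3 range.

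The neuropeptide gene Nmu had the largest fall in summed UMIs among the 24 genes with the largest ratios. Its GO3 cells spanned 0 to 76.1 CPM (median 25.1) and its FGO cells 0 to 23.5 CPM (median 0.708), and the summed UMIs differed 18.7-fold (15.3 to 23.03). Sgo2b, a gene of the shugoshin family that protects sister chromatid cohesion, had the largest ratio of means at 21.6-fold, from 10.2 CPM in GO3 to 0.471 CPM in FGO, and was 13.05-fold in summed UMIs (9.65 to 18.002). UMIs for it were found in 41 of 44 GO3 cells and 18 of 56 FGO cells. Its reads may be shared with a close paralogue, so its level is uncertain. Mei4, needed for meiotic double-strand breaks, stood at 27.5 and 3.53 CPM, and the ETS-family transcription factor Etv1 at 27.8 and 3.44 CPM. The rest of this group were Etl4 (10.8 and 0.774 CPM), the secreted protease Adamts18 (12.2 and 1.38 CPM), the septin Sept12 (10.9 and 1.26 CPM), 1700019D03Rik (18.3 and 2.28 CPM) and Mro (10.54 and 1.35 CPM). Summed UMIs gave smaller ratios for these 5 as well, from 14.01-fold to 8.95-fold for Etl4, from 8.81 to 5.83 for Adamts18, from 8.5999 to 5.36 for Sept12, from 8.05 to 4.20 for 1700019D03Rik and from 7.82 to 5.18 for Mro.

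**Figure D2:**
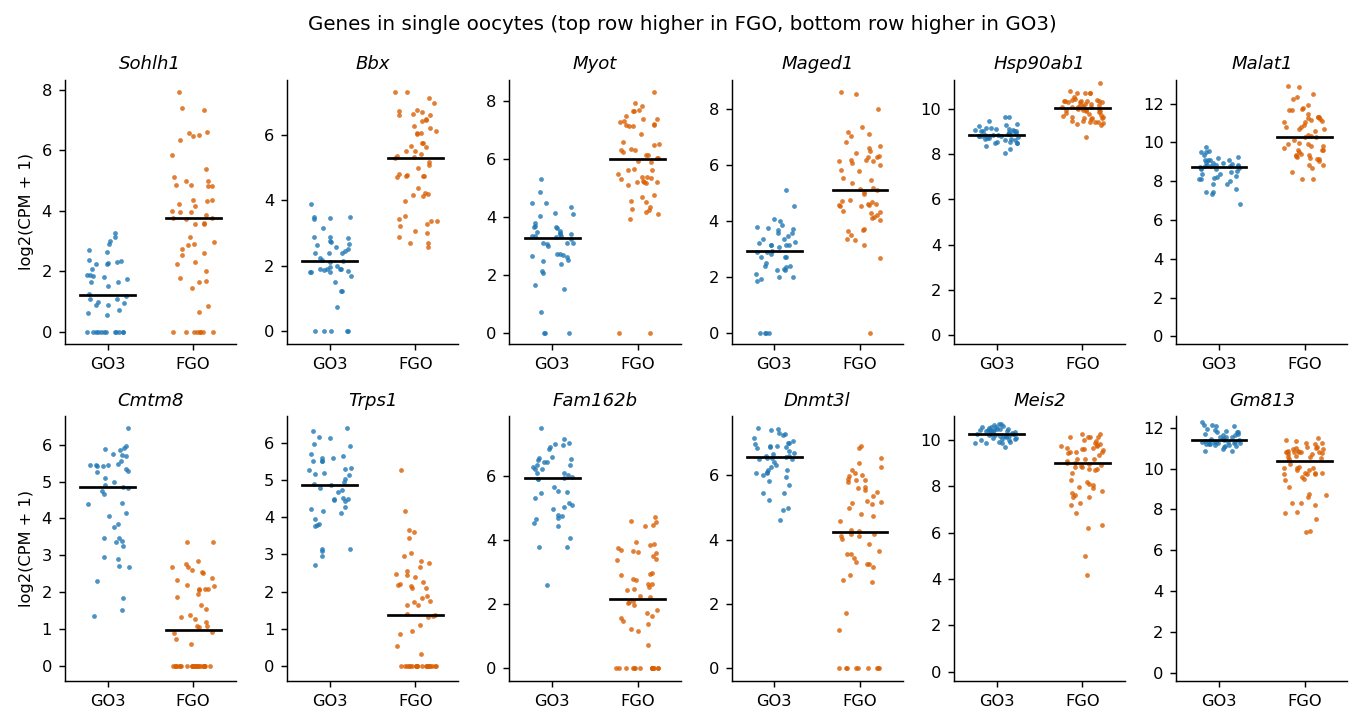
Level in every cell, as log2(CPM + 1), of 6 genes higher in FGO (top) and 6 higher in GO3 (bottom), each point an oocyte (44 GO3, 56 FGO) and each bar the median. The clouds of the stages overlap for every gene, and the medians are apart, by the most for Cmtm8 (27.8 CPM in GO3 and 0.989 in FGO) and by the least for Gm813 (2715 and 1315 CPM).

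The promoters of Sohlh1, Figla and Nmu are shown because SOHLH1 and FIGLA, a factor of the zona genes that was also higher in FGO, belong to the helix-loop-helix family that binds the E-box, written CANNTG. The stretches run from 250 bases before to 50 after the annotated start, are RefSeq sequence on GRCm38.p6 read 5′ to 3′ on the gene's strand, and carry the E-box letters in capitals. Sohlh1 (chr2:25847199-25847498, minus strand) had 5 matches, Figla (chr6:86016941-86017240, plus strand) 4 and, as a gene that was lower in FGO, Nmu (chr5:76363728-76364027, minus strand) 3.
Sohlh1: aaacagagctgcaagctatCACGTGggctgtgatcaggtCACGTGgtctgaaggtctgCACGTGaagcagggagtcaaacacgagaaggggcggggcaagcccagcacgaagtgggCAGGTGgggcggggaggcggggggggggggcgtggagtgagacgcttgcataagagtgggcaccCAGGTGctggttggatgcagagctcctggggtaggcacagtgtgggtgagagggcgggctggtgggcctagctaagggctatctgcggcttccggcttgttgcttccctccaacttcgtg
Figla: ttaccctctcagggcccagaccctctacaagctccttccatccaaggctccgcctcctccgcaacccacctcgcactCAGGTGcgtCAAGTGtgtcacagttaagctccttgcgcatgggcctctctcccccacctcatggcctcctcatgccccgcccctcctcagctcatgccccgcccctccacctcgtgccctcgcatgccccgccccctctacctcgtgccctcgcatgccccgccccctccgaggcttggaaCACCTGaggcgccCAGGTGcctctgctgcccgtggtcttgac
Nmu: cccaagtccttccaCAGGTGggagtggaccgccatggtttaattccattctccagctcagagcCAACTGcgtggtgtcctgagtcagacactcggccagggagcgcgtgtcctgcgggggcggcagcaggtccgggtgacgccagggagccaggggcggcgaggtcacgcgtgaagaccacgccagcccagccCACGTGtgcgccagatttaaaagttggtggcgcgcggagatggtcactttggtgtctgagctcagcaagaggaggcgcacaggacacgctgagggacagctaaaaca
Such short letters are common. CANNTG was found in 68.8% of 253 promoters of genes higher in FGO, in 78.7% of 427 promoters of genes higher in GO3, in 64.1% of the promoters of tested genes and in 72.3% of all 32851 promoters of the table, searched on both strands. Of the 272 and 419 genes, 208 and 312 had a promoter in the table. TATAAA was found in 4.35% and 11.5% of the promoters of the called genes and in 6.97% of those of tested genes. TAATTG, a homeobox core, was found in 4.35% and 7.96%, against 5.25%. CCAAT was in 38.3% and 35.8%, against 39.6%, and its letters can overlap an E-box. TGACGTCA was in 0.395% and 2.11%, against 3.49%. Among the 12 promoters of the genes with the largest ratios toward FGO, 10 held CANNTG and 0 held TATAAA. Among the 18 promoters of those with the largest ratios toward GO3, 13 and 2 did. The 12 promoters came from 10 genes and the 18 from 9 genes, with 7 of the 18 from 1700019D03Rik alone. A match of letters is a description of the window and not a binding site.

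None of the 691 called genes had cells of the stages wholly apart. For 57 of the 272 genes higher in FGO the median FGO cell was above the highest GO3 cell, and for 93 of the 419 genes higher in GO3 it was below the lowest one. Over the genes higher in FGO, the median number of FGO cells beyond the GO3 median was 48 of 56, and over those higher in GO3 it was 53. The genes were called from these same cells, so counts beyond the GO3 median or range follow largely from the calls. They describe the spread only.

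A mean of 100 CPM was reached in FGO by 54 of the 272 genes higher there and in GO3 by 72 of the 419, and in either stage by 2213 of the 7518 tested genes. The abundant ones were listed after their values were seen. Malat1, a long non-coding RNA kept in the nucleus (chromosome 19, 5795690 to 5802671, mm9), was the most abundant gene called higher in FGO. It ran from 113.3 to 862 CPM in GO3 (median 429) and from 276 to 7759 CPM in FGO (median 1258), and 36 FGO cells exceeded all GO3 cells. Its level in FGO fell with depth, with Spearman's rho of -0.68 over the 56 FGO cells and -0.31 over the 44 GO3 cells, and the part of depth in its difference was not tested. In cells of 500000 to 1500000 UMIs (23 GO3 and 19 FGO) its log2 ratio was 1.91, against 2.15 over all cells. In summed UMIs it was 1.48, which is 2.79-fold (2.75 to 2.84) in place of 4.45-fold. In the cells over 1500000 UMIs it was 2.23-fold.

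Of the other abundant genes called higher in FGO, several had a narrower spread, though FGO cells ran from 348 to 9037 CPM for Washc4. Hsp90ab1, a cytosolic HSP90 chaperone, had 260 to 803 CPM in GO3 (median 463) and 429 to 2239 CPM in FGO (median 1049), and 42 FGO cells were above every GO3 cell. Hsp90b1, the HSP90 of the endoplasmic reticulum, had means of 256 and 562 CPM, with 41 FGO cells above the GO3 range, but its ratio in summed UMIs was 1.72-fold (1.69 to 1.76). Dynll1, a dynein light chain, stood at 350 and 812 CPM. Ube2c, the ubiquitin-conjugating enzyme of the anaphase-promoting complex, stood at 296 and 741 CPM, and all 56 FGO cells were above its GO3 median. Washc4 of the WASH complex (745 and 1536 CPM) and Luc7l2, a splicing factor (365 and 895 CPM), passed the rule by the mean over cells, but in summed UMIs the ratios were 1.41-fold (1.39 to 1.43) and 1.54-fold (1.51 to 1.57). In the cells over 1500000 UMIs Ube2c stayed at 2.08-fold, while Hsp90ab1 was 1.90-fold, Dynll1 1.93-fold, Hsp90b1 1.46-fold, Washc4 1.17-fold and Luc7l2 1.08-fold.

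The most abundant genes called lower in FGO differed by factors close to the 2-fold limit. Gm813 (chromosome 16, 58613799 to 58617091, mm9) had 1830 to 4993 CPM in GO3 (median 2715) and 120 to 2925 CPM in FGO (median 1315). In FGO 42 cells were below every GO3 cell. Umodl1, a gene of an extracellular matrix protein, averaged 2642 and 1210 CPM. Hpf1, a partner of PARP enzymes in ADP-ribosylation, averaged 1589 and 779 CPM, and 45 FGO cells were under its GO3 range. Meis2, a homeobox transcription factor, ran from 824 to 1647 CPM in GO3 (median 1225) and from 17.1 to 1221 CPM in FGO (median 513). No FGO cell reached its GO3 median. All 4 ratios fell under 2-fold in summed UMIs, to 1.75 for Gm813 (1.74 to 1.77), 1.999 for Umodl1 (1.98 to 2.02), 1.76 for Hpf1 (1.75 to 1.78) and 1.93 for Meis2 (1.91 to 1.95).

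The transcripts in greatest abundance differed little. Lactate dehydrogenase B, Ldhb, was at 10988 CPM in GO3 and 12921 CPM in FGO. H1foo went from 11917 to 10078 CPM, ubiquitin Ubb from 9421 to 10423, securin Pttg1 from 9206 to 7123, Cdk7 from 6941 to 7552, histone H3f3b from 6626 to 7562, Fbxw24 from 6121 to 6793 and Spin1 from 7077 to 5304. The zona gene Zp3 went from 5565 to 8227 CPM and Dppa3, which guards maternal methylation in the zygote, from 4848 to 7868. None of these 10 genes reached 2-fold, and in summed UMIs Ubb, Cdk7 and H3f3b took the opposite sign, with log2 ratios of -0.05, -0.21 and -0.01.

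Gene lists by function were then read against the background, in which 48.3% of tested genes were above a log2 ratio of 0. The medians of the lists for maternal-effect genes, actin, replication-type histones, both kinds of ribosomal proteins, the respiratory chain and antioxidant enzymes were above 0 in all 13 ways of weighting, scaling or choosing cells. Those for zona and secreted factors, cyclic AMP, de novo DNA methylation, survival and growth signalling were below 0 in all 13, and every other list changed sign in at least 1. The median of all tested genes itself ran from -0.08 in cells under 500000 UMIs to 0.09 in cells over 1500000 UMIs. A list near 0 can therefore change sign together with all genes, and such a change is not one against the background. The subcortical maternal complex and maternal-effect genes, whose proteins are stored for the first cleavages, stood highest. Of 18 measured members 14 were above 0 with a median of 0.34, and none was called, where 3.62% of all tested genes were higher in FGO and 5.57% higher in GO3. Nlrp5, a core member of the complex, was at 1794 CPM in GO3 and 3441 in FGO (log2 0.94). Padi6, needed for the cytoplasmic lattices, was at 1131 and 1895 CPM, Ooep at 1592 and 2349, and Khdc3 at 3290 and 4651. Nlrp9b went the other way, from 218 to 131.2 CPM. The zona genes Zp1, Zp2 and Zp3, which form the egg coat, had log2 ratios of 0.46, 0.82 and 0.56. The oocyte-secreted factors listed with them lay mostly below 0, and Oosp3 was called lower in FGO, at 838 CPM in GO3 and 380 in FGO, or 1.72-fold in summed UMIs (1.69 to 1.75).

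Ribosomal, respiratory and antioxidant genes lay above 0 by small amounts, with shares of called genes below the 3.62% of all tested genes called higher in FGO and the 5.57% called higher in GO3. Of 79 cytoplasmic ribosomal protein genes, 66 were above 0 with a median of 0.27. Rps23 was the 1 called member (1.27%), at 221 CPM in GO3 (cells 115.97 to 393, median 213) and 702 CPM in FGO (cells 144.1 to 2908, median 681). In the cells over 1500000 UMIs its ratio went from 3.18-fold to 1.67-fold, under the limit, and ribosomal protein genes have near-identical copies that can divide reads. Of 88 nuclear genes of the respiratory chain, 70 were above 0 with a median of 0.26, and the called member (1.14%), the muscle-type subunit Cox6a2, was lower in FGO, at 16.1 and 5.996 CPM. Among 77 mitochondrial ribosomal proteins Mrpl9 (153.2 and 348 CPM) and Mrpl19 (8.90 and 23.7 CPM) were called higher (2.60%), and Mrps31 (260 and 105.2 CPM) lower (1.30%). Gapdh, the glycolytic enzyme, was at 47.1 and 106.9 CPM. Antioxidant enzymes had a median of 0.24, with 1 of 20 called, Nfe2l2, the transcription factor that induces many of them, at 14.3 and 5.83 CPM. The list for translation initiation and elongation had 28 members above and 27 below 0 and 1 call, and its median changed sign between settings. The proteasome list had a median of 0.03 with 1 call (2.33%), the assembly chaperone Psmg2, at 6.37 and 13.6 CPM, which was 1.76-fold in summed UMIs (1.54 to 2.01).

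Transcription factors of the oocyte were called in both directions. Of the 18 measured, 3 were called higher in FGO (16.7%, against 3.62% of all genes). These were Sohlh1, its partner Sohlh2 (4.61 and 11.9 CPM) and Figla (106.5 and 214 CPM), which switches on the zona genes. Sohlh1 and Sohlh2 reached 10 CPM in FGO alone, so the filter partly fixed this share and nothing is read from it. Figla had a log2 ratio of 1.01 by means and 0.74 in summed UMIs. In the cells over 1500000 UMIs Sohlh1 was 6.41-fold, Sohlh2 1.68-fold and Figla 1.56-fold. Sebox passed the limit for GO3 by means, at 101.5 and 50.6 CPM, but its ratio was 1.47-fold in summed UMIs (1.41 to 1.53). Of the 18 members 12 were below 0, with a median of -0.25. In cells over 1500000 UMIs the median was 0.07, which is still below the 0.09 of all tested genes there. Nobox went from 1663 to 1374 CPM, Obox5 from 456 to 251.1 and Lhx8 from 184 to 180. In the basal machinery of RNA polymerase II, Tbpl2, the TBP paralogue used by oocytes, was called higher (35.7 and 76.8 CPM), and Gtf2a1, which encodes TFIIA chains that bind it, lower (186 and 88.7 CPM). In summed UMIs both ratios were 1.94-fold (1.84 to 2.06 for Tbpl2 and 1.88 to 2.01 for Gtf2a1). They were the called members of 44, or 2.27% in each direction, below the shares of all tested genes.

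The DNA methylation genes are of interest because the oocyte genome gains its methylation during growth. Dnmt3l, the cofactor without activity of its own that the de novo enzymes need in oocytes (chromosome 10, 77504692 to 77526367, mm9), was called lower in FGO. It ran from 23.5 to 176 CPM in GO3 (median 94.2) and from 0 to 121.1 CPM in FGO (median 17.8), and 31 FGO cells were below every GO3 cell. Its means of 95.9 and 30.0 CPM were 3.19-fold apart, and 2.16-fold in summed UMIs (2.07 to 2.26). In cells over 1500000 UMIs the ratio was 1.97-fold, under the limit. Tet1, which oxidizes methylcytosine, was called lower as well, at 12.9 and 3.95 CPM, with 3.26-fold by means and 1.99-fold in summed UMIs (1.74 to 2.28), and 1.59-fold in the cells over 1500000 UMIs.

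Other members stayed within 2-fold. Dnmt3a, the de novo enzyme, was at 188 and 252 CPM, and the maintenance enzyme Dnmt1 at 864 and 1357. Uhrf1, which brings DNMT1 to hemimethylated sites, was at 226 and 321 CPM, Kdm1b, the histone demethylase needed for maternal imprints, at 90.96 and 128.96, and Tet3, the oxidase of the zygote, at 244 and 182. Of the 16 measured genes of the list 10 were below 0, and the 2 called lower were 12.5%, against 5.57% of all tested genes. Tet1 reached 10 CPM in GO3 alone, so the filter partly fixed this share and nothing is read from it. Of 34 histone methylation and Polycomb genes none was called, where 9.19% of all tested genes were, and the median was -0.18. Hdac1, a histone deacetylase, was called higher in FGO, at 14.4 and 36.8 CPM, and Ubn1, a chaperone of histone H3.3, lower, at 31.9 and 15.2 CPM, the latter 1.69-fold in summed UMIs (1.57 to 1.83). The 22 replacement histones and chaperones had a median of -0.05, and of 69 replication-type histone genes 4 reached 10 CPM.

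**Figure D3:**
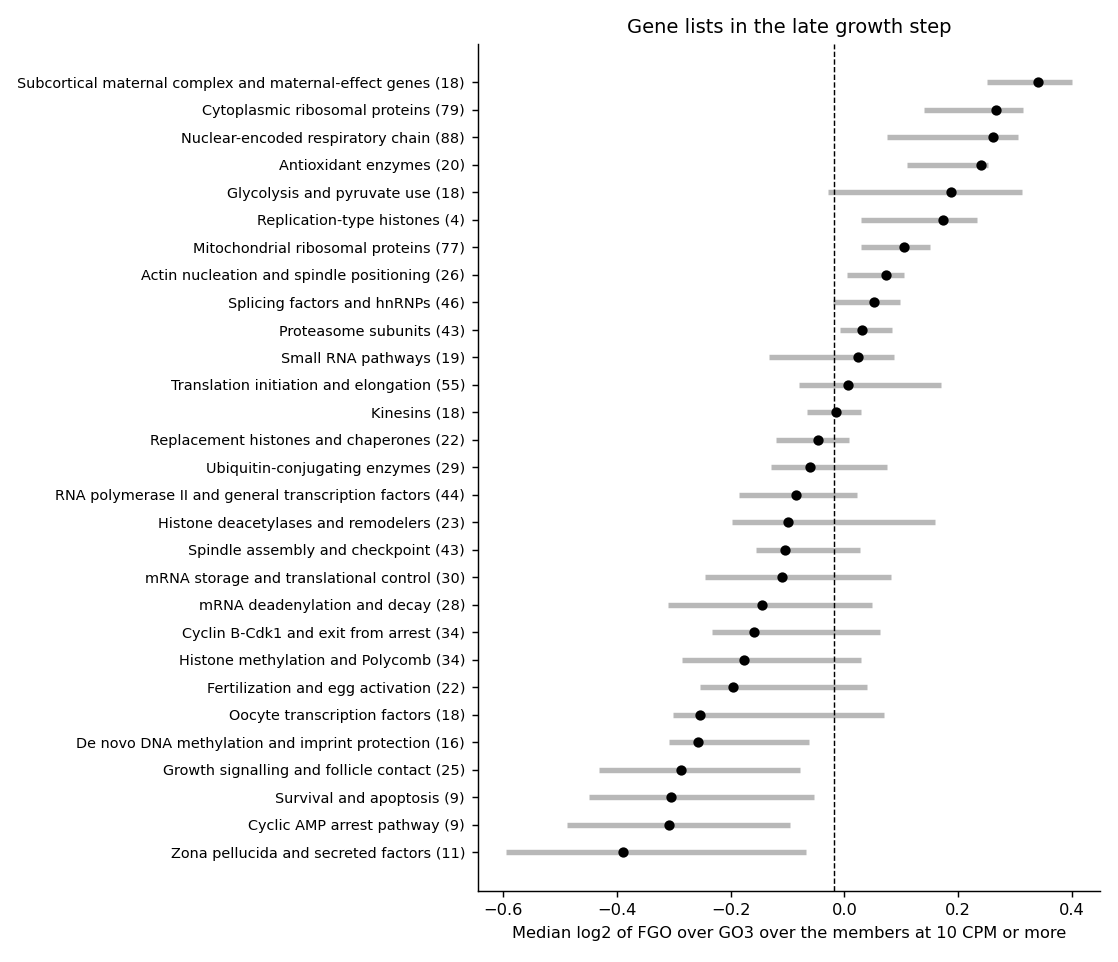
Median log2 ratio of FGO over GO3 over the members of each gene list at 10 CPM or more (number in brackets); points are means over cells, bars the range over the 13 ways of weighting, scaling or choosing cells, and the dashed line the median of all tested genes (-0.02). The maternal-effect genes are highest (0.34), and the zona and secreted factors lowest (-0.39).

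Genes of meiotic arrest and of the spindle were next read against the 3.62% of all genes called higher in FGO and the 5.57% called higher in GO3. In the cyclic AMP pathway that holds the arrest, 7 of 9 measured members were below 0 and Prkar2a, a regulatory subunit of protein kinase A, was called lower in FGO (22.5 and 10.45 CPM), which is 11.1% of that short list. Of 34 genes of cyclin B-Cdk1 control, Ccnb3, a meiotic cyclin, was the 1 called (2.94%), lower in FGO at 16.8 and 5.10 CPM. Smc1b, the meiotic cohesin subunit, was the called member of 43 spindle and checkpoint genes (2.33%) and was higher in FGO, at 83.1 and 230 CPM. Its ratio of 2.77-fold was 2.05-fold in summed UMIs (1.98 to 2.13) and 1.65-fold in the cells over 1500000 UMIs, under the limit. Spire1, an actin nucleator for spindle positioning, was lower, at 71.5 and 26.7 CPM. Kif5c was the called kinesin, at 36.3 and 11.2 CPM. Of 29 ubiquitin-conjugating enzymes, Ube2c, Ube2l3 (65.7 and 138.6 CPM) and Ube2v1 (196 and 400 CPM) were higher in FGO, and Ube2u (27.5 and 5.85 CPM) and Ube2l6 (10.1 and 4.06 CPM) lower, which is 10.3% and 6.90% of the list. Ube2u and Ube2l6 reached 10 CPM in GO3 alone, so the filter partly fixed the 6.90% and nothing is read from it. Ube2l3 was 1.58-fold in summed UMIs (1.51 to 1.65), and Ube2v1 had a log2 ratio of 1.03 by means and 0.70 in summed UMIs.

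In the list for mRNA storage and translational control 1 of 30 genes was called in each direction (3.33%), against 3.62% of all tested genes higher in FGO and 5.57% higher in GO3. Eif4ebp1, the repressor of the cap-binding factor eIF4E, was called higher in FGO at 10.6 and 51.6 CPM. Its ratio went from 4.85-fold to 2.83-fold in the cells over 1500000 UMIs. The RNA helicase gene Mov10 was called lower at 16.1 and 6.49 CPM (1.94-fold in the cells over 1500000 UMIs). None of 28 genes of deadenylation and decay was called, where 9.19% of all tested genes were, and Cnot7, a deadenylase, had the lowest ratio at 281 and 150.9 CPM. Among small RNA genes Mov10l1, the piRNA helicase, was called higher (16.8 and 38.99 CPM), with 1.77-fold in summed UMIs (1.64 to 1.92). Hnrnpa1 was lower (101.7 and 45.3 CPM, 1.96-fold in the cells over 1500000 UMIs), the 1 called among 46 splicing factors (2.17%). Among 22 fertilization genes 3 were called higher in FGO (13.6%) and 1 lower (4.55%). Cd81, a tetraspanin of the egg surface, was higher (8.09 and 34.8 CPM) and reached 10 CPM in FGO alone, which partly fixed this share. Ppp3ca (10.1 and 20.5 CPM) and Rab3a passed the limit narrowly, the former at a log2 ratio of 0.28 in summed UMIs. In the cells over 1500000 UMIs Cd81 was 2.21-fold, Rab3a was 1.985-fold, and Ppp3ca had a log2 ratio of -0.028. Pecam1 was called lower. The cadherin gene Cdh2 was called lower (36.1 and 13.9 CPM), 1 of 25 genes of growth signalling and follicle contact, which is under the 5.57% of all tested genes. In summed UMIs Pecam1 and Cdh2 were both 1.83-fold apart (1.72 to 1.95 and 1.70 to 1.96). None of 9 survival genes was called, a list too short to set against the 9.19% of all tested genes, and Bcl2l10 stood at 3354 and 2319 CPM.

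The 5 stages allowed the late step to be set beside the first one, from NGO to GO1, which shares no cells with it. Most called genes went in opposite directions in the 2 steps. At this first step 34.6% of tested genes were higher in NGO and 22.1% higher in GO1. Of all 7344 genes tested in both steps, 3.44% were called higher in FGO than in GO3 and 5.28% higher in GO3. Of 2225 genes at least 2-fold higher in NGO than in GO1 and tested in both steps, 185 were higher in FGO than in GO3 (8.31%) and 2 were higher in GO3, with a median log2 ratio of 0.29. Those 185 were 68.01% of the genes higher in FGO. Of 1625 genes higher in GO1 than in NGO, 325 were higher in GO3 than in FGO (20.0%) and 7 were higher in FGO, with a median of -0.46. They made up 77.6% of the genes higher in GO3. Of 3494 genes within 2-fold in the first step, 61 were called in each direction. Genes higher in FGO had a median of 9.48 CPM in GO3, and those higher in GO3 a median of 9.63 CPM in FGO. Many were thus tested only through the stage where they were high. The filter partly fixed the shares above, which are a description only. Across 7343 genes the log2 ratios of the 2 steps had a Spearman's rho of -0.64 and a Pearson's r of -0.68, which describes genes measured in the same 2 pairs of stages and in libraries that may be shared.

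The stage of highest expression showed the same. Of the 272 genes higher in FGO, 180 had their highest mean in NGO (66.2%, against 40.9% of all tested genes) and 66 had it in FGO (24.3%, against 10.3%). From the first stage to the last, their median levels were 48.1, 10.04, 7.69, 9.48 and 27.2 CPM. Of the 419 genes higher in GO3, 330 had their lowest mean in NGO (78.8%, against 32.1% of all tested genes), 182 peaked in GO2 (43.4%, against 11.6%), 33.9% peaked in GO1, against 24.4%, and 88 peaked in GO3, or 21.002% against 12.7%. Their medians were 5.79, 31.4, 33.99, 27.05 and 9.63 CPM in the order of the stages. The difference between the last 2 stages is fixed by the calls, which also bar a gene higher in FGO from peaking in GO3 and one higher in GO3 from peaking in FGO. The first 3 stages played no part in the calls, but the filter of 10 CPM in GO3 or FGO bears on these shares too.

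**Figure D4:**
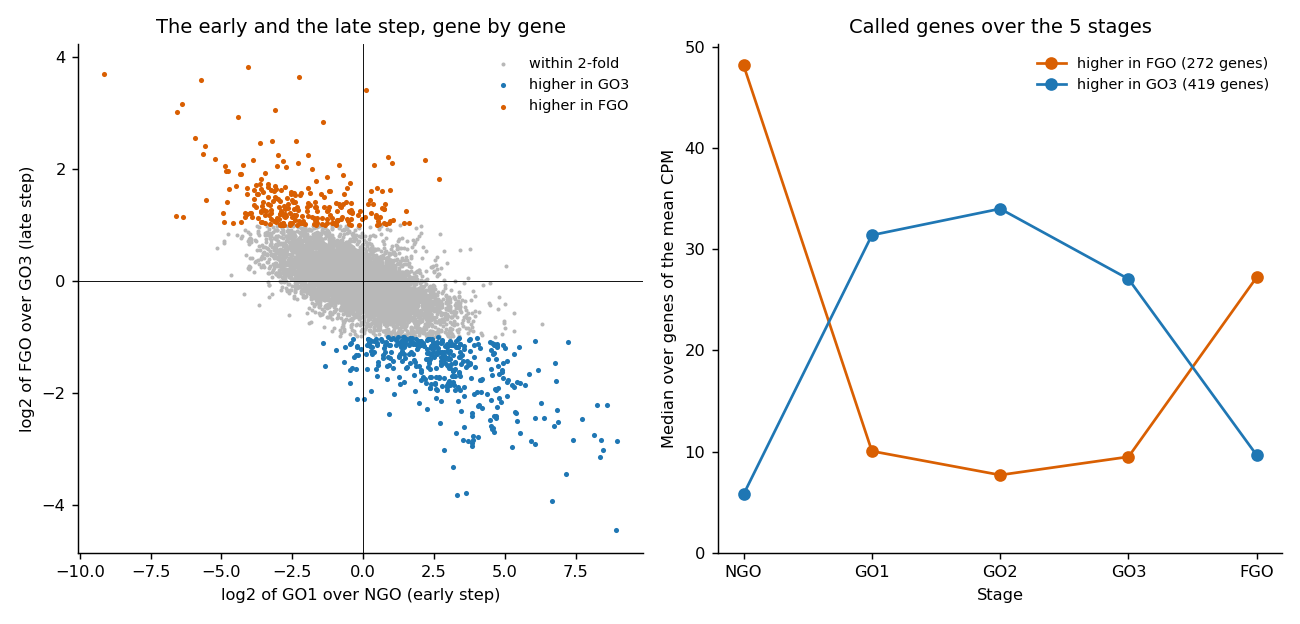
Left, log2 of GO1 over NGO (x axis) and of FGO over GO3 (y axis) for each gene tested in both steps; right, the median over genes of the mean CPM at each of the 5 stages, for the 272 genes higher in FGO and the 419 higher in GO3. Genes higher in FGO lie mostly at the left, where NGO exceeds GO1, and their median level goes from 48.1 CPM in NGO through 7.69 in GO2 to 27.2 in FGO.

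A sharper set of 47 genes was formed after the values were seen, from genes of at least 20 CPM in NGO that were over 20-fold lower in both GO1 and GO2. GO3 and FGO were not used to choose it. All 47 had a higher mean in FGO than in GO3, where 48.3% of all tested genes did. Only 16 of the 47 reached 10 CPM in either stage. Some differences were very small, as for Cdc42ep4 at 2.63 CPM in GO3 and 2.64 CPM in FGO. Those that reached 10 CPM mostly did so in FGO alone, so a count of calls among them would be fixed by the filter and is not given. The FGO mean was 0.387% to 47.04% of the NGO mean (median 17.01%), against 0 to 16.3% (median 4.86%) in GO3. Sohlh1, at 392 CPM in NGO, reached 7.31% of that level, Maged1 to 12.3%, Eif4ebp1 to 19.7%, Myot to 21.4% and Bbx to 29.8%. Crabp1, which binds retinoic acid, had no UMI in GO1, GO2 and GO3 and 0.162 CPM in FGO, with UMIs in 5 of 56 cells. Summed over the 47 genes, GO3 cells held 71.5 to 329 CPM (median 190) and FGO cells 250 to 2039 CPM (median 629). Of 56 FGO cells 53 exceeded the highest GO3 cell. The sum had a Spearman's rho with depth of -0.17 in FGO and 0.16 in GO3.

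Single cells were finally placed by their likeness to each stage, after every cell had been thinned to 50000 UMIs and left out of its own stage mean. All 44 GO3 cells were more like the GO3 mean, with a median Spearman's rho of 0.827 against 0.788 with the FGO mean. Of 56 FGO cells, 47 were more like the FGO mean (median rho 0.813 over all FGO cells, against 0.777 with the GO3 mean), and 9 were more like the GO3 mean. Those 9 had 1254988 to 3584560 UMIs (median 2800940), and the other 47 had 61555 to 3828823 (median 607658). The part of depth in this split was not tested. The 9 cells had a median Malat1 level of 462 CPM, against 1645 CPM in the other 47, and their sum over the 47 genes ranged from 250 to 549 CPM. All 9 were named between FGO_sc14 and FGO_sc37. Malat1 ranged from 276 to 2535 CPM in FGO_sc1 to FGO_sc37 and from 1329 to 7759 CPM in FGO_sc38 to FGO_sc56. What the cell numbers stand for is not given, and their part in the split was not tested.

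**Figure D5:**
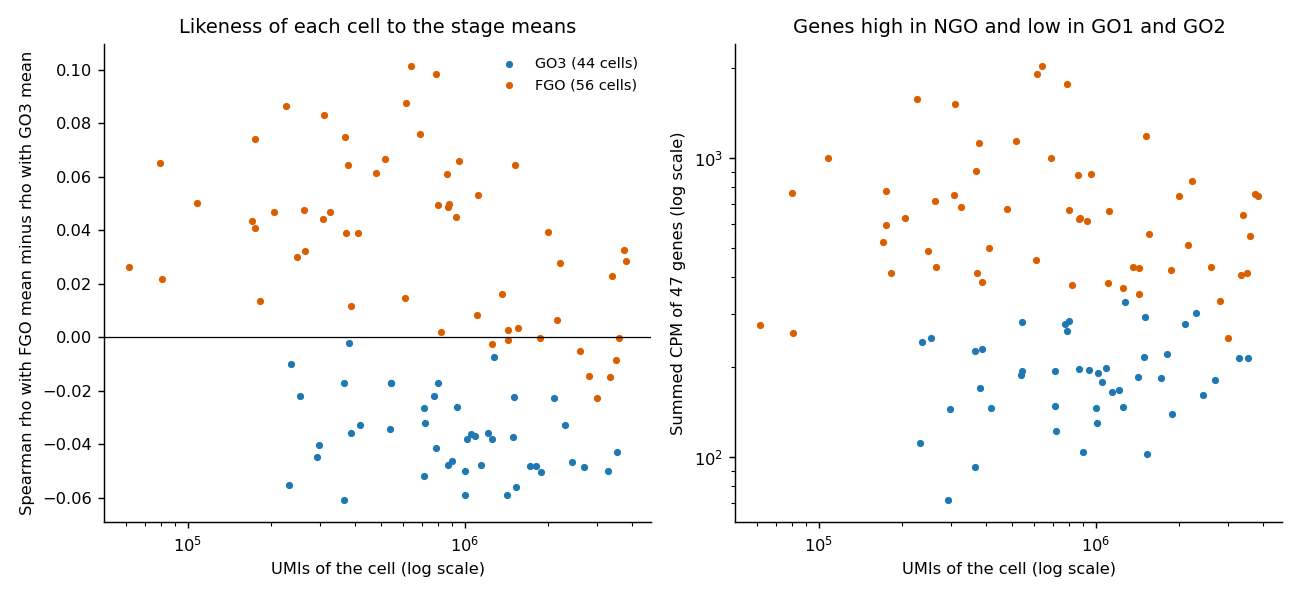
Each point is an oocyte (44 GO3, 56 FGO) against its UMIs on a log scale; left, Spearman's rho with the FGO mean minus rho with the GO3 mean; right, the summed CPM (log scale) of the 47 genes high in NGO and low in GO1 and GO2. On the left 9 FGO cells fall below 0, all of them with at least 1254988 UMIs, and on the right 53 of 56 FGO cells lie above all GO3 cells.

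Depth also moved with the number of calls. In cells over 1500000 UMIs (11 GO3 and 15 FGO) 215 genes were higher in FGO and 257 higher in GO3, in cells of 500000 to 1500000 UMIs 340 and 530, and in cells under 500000 UMIs (10 and 22) 453 and 781. Of the 691 called genes, 680 kept their direction in the cells over 1500000 UMIs. These cells took part in the calls, so that count was largely fixed in advance. Of the 58 called genes named by rule, 38 stayed at 2-fold in these cells. Bbx went from 12.05-fold to 5.73-fold, Sohlh1 from 13.04-fold to 6.41-fold and Cmtm8 from 15.2-fold to 11.1-fold. Of the 20 named genes that fell under the limit, A330032B11Rik, Phf21b, Smc1b, Rps23, Tet1 and Dnmt3l were described above. The others were Sohlh2, Sebox, Oosp3, Tbpl2, Gtf2a1, Mov10, Ppp3ca, Pecam1, Ubn1, Psmg2, Mov10l1, Cdh2, Hnrnpa1 and Ube2l3. The number of genes with a UMI differed less than its spread. It was 6505 ± 259 (SD over 44 GO3 cells) and 6295 ± 500 (SD over 56 FGO cells) at 50000 UMIs, and 11217 ± 1219 and 10361 ± 2048 without thinning.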

How the data were processed

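Single oocytes were measured by RNA-seq with cell barcodes and UMIs. The authors aligned reads to the mm9 mouse transcriptome with Tophat, removed duplicates by UMI, filtered cells on genes, transcripts and ERCC spike-ins, and deposited UMI counts per gene and cell without normalization; the version of the annotation is not given in the sources used here. The 223 deposited cells and 23201 genes were read as counts. Cells were scaled to CPM and averaged per stage. Since libraries could not be assigned to cells, each stage was 1 sample, no p-value was computed, and the cell-wise test of the study was not used. Genes were called at 2-fold and 10 CPM. Intervals came from the binomial split of summed UMIs (scipy). The calling rule was tried on simulated data, but the outcome is not given here and no result rests on it. Alternatives used pooled sums, medians, scaling factors of edgeR and DESeq2 (no test), thinned cells, depth windows, and other limits.

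The genes named are the 12 largest ratios in each direction with a UMI in at least 50% of cells of the higher stage and 2-fold in summed UMIs, up to 2 members per list and direction, the 10 most abundant genes, and 6 DNA methylation genes of the study. Other genes named were chosen after their values were seen. The stages compared and the lists were chosen with earlier results of these data known. Positions are from GENCODE on mm9 (NCBIM37). Mitochondrially encoded genes and the methylation and accessibility assay were not analysed here.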

Additional observations from a re-analysis of the deposited data

How the results depend on the processing

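The number of calls depended on the processing. The signs below are of genes called at 2-fold in the same cells. Keeping a sign was therefore largely fixed in advance, and nothing is read from it. All 691 called genes had the same sign in 10 of the 12 other ways of weighting, scaling or choosing cells. The exceptions were thinning to 50000 UMIs (690 of 691) and cells over 1500000 UMIs (680 of 691), in which Ppp3ca had a log2 ratio of -0.028. In those deepest cells 343 of the 691 fell under 2-fold. Settings with cells under 500000 UMIs, over 1500000 UMIs, or without shallow FGO cells were chosen after seeing the data. As a share of the genes tested, genes higher in FGO were 3.62% and genes higher in GO3 5.57% as reported. Pooled sums gave 3.54% for genes higher in GO3 and a profile distance of 0.492, and medians over cells gave 2.40% for genes higher in FGO. Pooled sums scaled by TMM gave 1.94% for genes higher in FGO, and by size factors 1.90%, both with a profile distance of 0.492. The share of calls that were higher in FGO was 27.2% for medians over cells, against 39.4% as reported. The distance was 0.654 for thinned cells and 0.649 for cells of 500000 to 1500000 UMIs. Cells over 1500000 UMIs gave 3.33% for genes higher in GO3, a distance of 0.493 and 24 of 29 gene lists with a median above 0, against 12 as reported, with a median over all genes of 0.09. Cells under 500000 UMIs gave 6.09% and 10.49% and a distance of 0.772. Without the 3 FGO cells under 100000 UMIs 254 and 414 genes were called, and without the 10 FGO cells shallower than the shallowest GO3 cell 235 and 388. With no filter 15.7% and 17.3% passed, with a distance of 0.514. At 50 CPM the shares were 2.40% and 3.55%, with a distance of 0.517, and at 1.5-fold 10.7% and 12.9%. Pooled sums moved the Spearman's rho between the early against late step to -0.788. Causes were not tested. No paired analysis was possible because the labels give no library or mouse for a cell, and for the same reason no replicate could be left out.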
